A study of Mus musculus with 10 samples.

Results

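The genes described here are the MS4A family members Ms4a4a, Ms4a4b, Ms4a4c, Ms4a6b, Ms4a6c, Ms4a6d, Ms4a7 and Ms4a14, in macrophages of lung metastases and of normal lung. The members were chosen by name, 8 of the genes of this family, with earlier results of these data known. Of these, 7 had counts among the 24538 genes of the count tables. The expression of Ms4a14 was not analysed here. All cells came from C57BL6/J wild type female mice aged 8 to 10 weeks. Metastasis-associated macrophages (MAMs) were CD11B+CD11C- cells from dissected lung metastases, which followed injection of E0771-LG mouse mammary carcinoma cells into the tail vein at 6 to 8 weeks of age. Resident alveolar macrophages (RAMs) were CD11B-CD11C+ cells from lungs without tumour cells. Both were sorted as live CD45+F4/80+LY6C-MRC1+ cells of high forward scatter, after digestion in the presence of the transcription inhibitors alpha-amanitin and actinomycin D. There were 5 RNA-seq libraries per group, and each MAM library came from metastases pooled from 2 to 4 mice. Tissue state and sorted population differ together between the groups, so their parts in any difference cannot be told apart. Neither can less RNA per cell and fewer cells with the RNA, since each library is a bulk sample. MAM libraries held 55391447 to 87523247 counts on genes and RAM libraries 50746305 to 72150650. Lines that name no gene made up 54.6% to 58.3% of all counts in MAM libraries and 62.2% to 64.1% in RAM libraries. These lines include alignments that were not unique, so the share is not one of reads. It also differs between the groups without overlap.

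MS4A genes encode small proteins that cross the membrane several times, and most of them lie side by side on the genome. The best known are MS4A1, which is CD20 of B cells, and MS4A2, the beta chain of the high-affinity IgE receptor of mast cells. Several others are made by macrophages, where MS4A4A pairs with the beta-glucan receptor dectin-1 and MS4A6D with the complement receptor VSIG4, and Ms4a4b is best known from T cells.

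Marker genes of the cells were read first. Of 12 interstitial macrophage markers, all 12 were differentially expressed upward in MAMs, with a median log2 fold change of 6.08. Of 12 alveolar macrophage markers, 11 were differentially expressed downward, with a median of -6.44. Genes count as differentially expressed when they changed more than 2-fold and the edgeR quasi-likelihood p, adjusted by Benjamini-Hochberg over 11571 genes, was under 0.05. Itgam, which encodes CD11B, ran from 5848 to 6844 CPM across MAM libraries and from 59.5 to 72.2 CPM across RAM libraries. Here CPM are counts scaled to the TMM-normalized size of the library, 44718400 to 69616100 in MAMs and 46915900 to 66597900 in RAMs. In every library this size is below the counts on genes times the TMM factor, so each CPM is higher than on all counts. Itgax, which encodes CD11C, ran from 145 to 240.02 CPM across MAM libraries and from 880 to 1110.4 across RAM libraries. Itgam and Itgax thus followed the sort, which used their proteins, and the lists were chosen with earlier results of these data known. All 9 classical monocyte markers tested were also differentially expressed upward in MAMs, so the lists do not settle which cell type the MAMs are.

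Of the 7 members tested, all 7 were differentially expressed upward in MAMs, against 15.3% of all genes tested; 15.1% were called downward. All MAM libraries lay above all RAM libraries for each of the 7, as they did for 23.7% of genes. The members were chosen with earlier results of these data known, so these shares do not measure how unusual the family is. Ms4a4a and Ms4a4b were tested only because of their level in MAMs, since their mean FPKM in RAMs was 0.334 and 0.236, under the limit of 1. Log2 fold changes ran from 2.86 in Ms4a6d to 6.61 in Ms4a6b, with a median of 5.24, against -0.015 over all genes tested. An exact permutation test gave p = 0.00794 for each member, two-sided, which is the smallest p that 5 against 5 libraries allow.

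**Figure D1:**
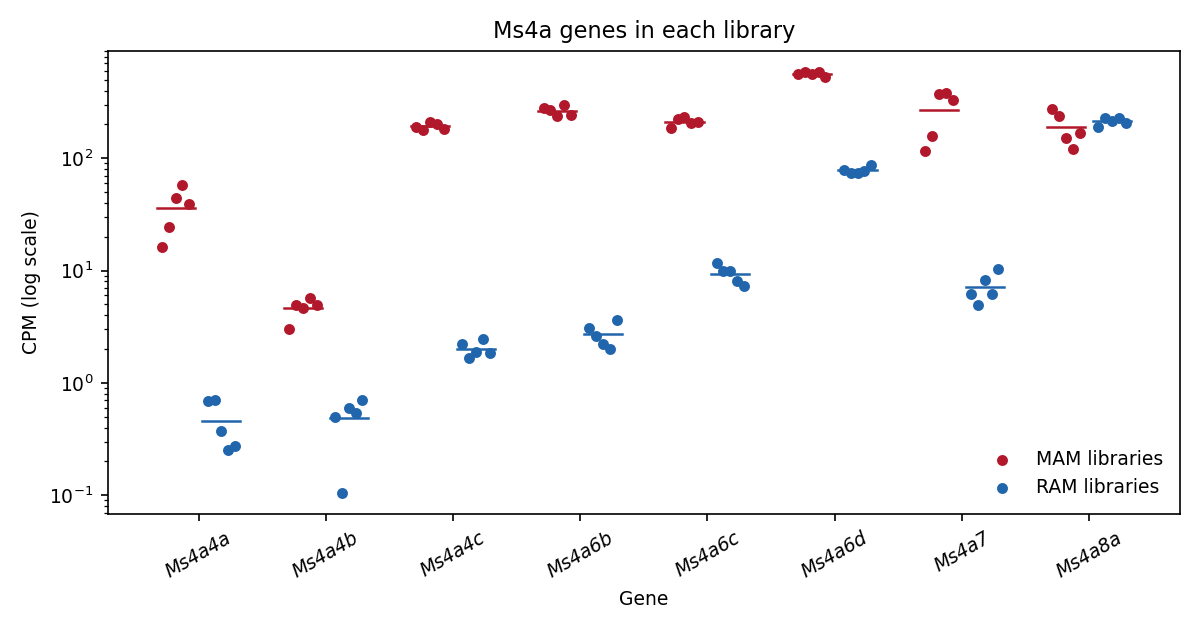
CPM of the 7 members and of Ms4a8a (horizontal axis) in each MAM and RAM library on a log scale; points are libraries and lines are group means (n = 5 per group). The groups do not overlap for any of the 7 members, and they overlap for Ms4a8a.

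The Ms4a6 genes form one branch of the family. Ms4a6b was at 277, 266, 237, 300.4 and 244 CPM in MAM replicates 1 to 5 and at 3.06, 2.63, 2.22, 2.02 and 3.62 CPM in RAM replicates 1 to 5. The 5 MAM values lay close together and no RAM value came near them. The log2 fold change was 6.61 (SE 0.163, adjusted p = 6.8e-14, edgeR). Ms4a6c was at 185, 221, 231, 205 and 211 CPM in MAMs and at 11.8, 9.85, 9.81, 8.08 and 7.25 CPM in RAMs. Ms4a6c was therefore less far apart, at a log2 fold change of 4.49 (SE 0.136, adjusted p = 6.9e-13, edgeR). Ms4a6d, whose product pairs with VSIG4, was at 563, 580, 567, 588 and 533 CPM in MAMs and at 78.8, 73.9, 73.9, 77.2 and 87.2 CPM in RAMs. Ms4a6d had the least spread of the members among MAM libraries, 3.73% of the mean, and it had the highest FPKM of the members in RAMs. Its log2 fold change of 2.86 (SE 0.0729, adjusted p = 1.0e-13, edgeR) was the smallest of the members. Ms4a6c overlaps the antisense gene BE692007, and 45.8% of the 100-base stretches of its transcripts also occur in BE692007 or Prdm11. Ms4a6b overlaps the antisense gene Gm19261. The counting is not stated to use strand, so reads from these partners cannot be told apart.

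The bases before a RefSeq start of Ms4a6b and of Ms4a6c are shown because both genes rose and both stretches hold the same motif. The core of the interferon-stimulated response element, searched as GAAANNGAA on both strands of windows of 250 bases before to 50 after each start, is in capitals. Both sequences are from RefSeq, build GRCm38.p6, plus strand, at chr19:11518309-11518558 for Ms4a6b and chr19:11469118-11469367 for Ms4a6c. The stretch of Ms4a6b lies inside the annotated gene.
Ms4a6b: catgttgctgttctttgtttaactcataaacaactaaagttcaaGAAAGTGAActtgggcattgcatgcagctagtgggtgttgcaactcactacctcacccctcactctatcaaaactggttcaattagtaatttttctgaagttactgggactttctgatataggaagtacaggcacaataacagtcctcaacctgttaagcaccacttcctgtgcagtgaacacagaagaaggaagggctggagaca
Ms4a6c: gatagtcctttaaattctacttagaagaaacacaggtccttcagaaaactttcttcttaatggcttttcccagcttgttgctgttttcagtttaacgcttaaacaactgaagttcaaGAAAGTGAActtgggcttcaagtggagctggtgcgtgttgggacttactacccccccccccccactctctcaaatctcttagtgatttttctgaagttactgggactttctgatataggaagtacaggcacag
The motif lies 206 to 198 bases before the start of Ms4a6b and 133 to 125 bases before that of Ms4a6c, within 24 identical bases. A further 48 identical bases begin 118 bases before the start of Ms4a6b and 49 before that of Ms4a6c. Windows of 7 members were matched, those of Ms4a14 but none of Ms4a6d, for which there was no window. Ms4a4a, Ms4a4b and Ms4a4c rose as well, with no GAAANNGAA in their windows, and that of Ms4a18, which was at 0 in all MAM libraries, holds it. Ms4a7 also holds the motif, in both of its windows, and the one that also lies inside the annotated gene is printed here, from the minus strand at chr19:11334696-11334945.
Ms4a7: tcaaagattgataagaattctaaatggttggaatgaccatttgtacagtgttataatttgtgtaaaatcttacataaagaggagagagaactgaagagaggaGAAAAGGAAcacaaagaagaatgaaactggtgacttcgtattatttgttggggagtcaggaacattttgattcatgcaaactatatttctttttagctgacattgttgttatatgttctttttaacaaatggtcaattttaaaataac
Of 32851 windows of all genes, 8.56% held this motif on either strand. The PU.1 core GAGGAAGT, the STAT motif TTCNNNGAA and the C/EBP motif TTGCNNAA were in none of the member windows matched, and in 3.2%, 8.3% and 10.8% of all windows. The AP-1 motif TGANTCA was in windows of Ms4a14, Ms4a4b and Ms4a7 and in 7.81% of all windows. No match of 1 motif overlapped that of another in these windows. A match describes letters and says nothing about binding.

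The Ms4a4 genes form the second branch. Ms4a4c was at 191, 179, 209, 201 and 183 CPM in MAMs and at 2.23, 1.67, 1.88, 2.44 and 1.83 CPM in RAMs. The values lay close together within each group, with a log2 fold change of 6.58 (SE 0.129, adjusted p = 5.8e-15, edgeR). Ms4a4a, whose product pairs with dectin-1, was at 16.2, 24.4, 44.5, 58.1 and 38.8 CPM in MAMs and at 0.685, 0.706, 0.373, 0.250 and 0.277 CPM in RAMs. The MAM libraries of Ms4a4a were far apart, lowest in replicate 1 and highest in replicate 4, with a ratio of 3.59. Its log2 fold change was 6.28 (SE 0.427, adjusted p = 6.5e-09, edgeR). Ms4a4b was at 3.05, 4.99, 4.61, 5.70 and 4.98 CPM in MAMs and at 0.497, 0.105, 0.6005, 0.543 and 0.703 CPM in RAMs. Ms4a4b had the fewest counts of the members in MAMs, 150 to 347 per library, and 7 to 33 in RAMs, with no overlap. Its log2 fold change was 3.25 (SE 0.519, adjusted p = 7.1e-05, edgeR). The coding sequences of Ms4a4b and Ms4a4c are 91.8% identical, but only 1.66% of the 100-base stretches of Ms4a4c transcripts occur in another gene, so some reads could be split. Ms4a4c also overlaps the pseudogene Gm5692.

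On log2(FPKM + 1) with limma the log2 fold changes of Ms4a4a and Ms4a4b were 4.00 and 1.64, since the added 1 is above their RAM levels. With 1% of the other group's level subtracted, those of Ms4a4c and Ms4a6b were 8.25 and 8.56, since their RAM levels were close to 1% of their MAM levels.

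Because Ms4a4b is best known from T cells, the T and NK cell list of 20 genes was read beside it. Their summed level was 94.9, 82.4, 62.7, 39.8 and 63.0 CPM in MAM replicates 1 to 5 and 286, 312, 270, 319 and 334 CPM in RAM replicates 1 to 5. Cd2 set this order, since without Cd2 the list summed to 28.97 to 60.7 CPM across MAM libraries and to 16.5 to 25.8 across RAM libraries, the other way round. The sum therefore gives no direction for the list. Of the 6 listed genes tested, 2 were differentially expressed upward in MAMs and 2 downward, and Cd2 was at 21.1 CPM in MAMs and 282 in RAMs, while Klrk1 ran from 15.7 to 45.1 CPM across MAM libraries and from 0.255 to 2.15 across RAM libraries. Zap70 was at 0 in all MAM libraries, and Cd3e ran from 0.134 to 3.13 CPM across MAM libraries and from 0.0601 to 2.72 across RAM libraries. The part of such cells in the Ms4a4b level was not tested.

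Ms4a7, a gene of tissue macrophages, also differed widely between MAM libraries. It was at 115, 158, 370, 380 and 330 CPM in MAM replicates 1 to 5 and at 6.18, 4.91, 8.32, 6.22 and 10.3 CPM in RAM replicates 1 to 5. Replicates 1 and 2 of the MAMs were low, yet still above every RAM library. The log2 fold change was 5.24 (SE 0.350, adjusted p = 5.3e-09, edgeR), and it was 5.44 without MAM replicate 1. Ms4a4a was also lowest in MAM replicates 1 and 2, and Ms4a4b and Ms4a6c were lowest in replicate 1. The highest MAM library was 1.87 times the lowest in Ms4a4b, 1.27 times in Ms4a6b, 1.25 times in Ms4a6c, 1.17 times in Ms4a4c and 1.10 times in Ms4a6d. Over the 10 classical monocyte markers, the summed level in MAM replicates 1 to 5 was 11628, 10367, 7012, 4716 and 7112 CPM, and in RAM replicates 1 to 5 it was 2000.2, 1404, 1327, 1589 and 2309 CPM. The differences between MAM libraries came from Fn1, at 10409, 9037, 5887, 3588 and 5906 CPM, and without Fn1 the sums were 1219, 1330, 1125, 1128 and 1206 CPM. Vcan, F13a1 and Ly6c2 were lowest in MAM replicate 1, as Ms4a7 was, so the list had no common order over MAM libraries. Of the 9 monocyte markers tested, 9 were differentially expressed upward in MAMs, and none of the list was at 0 in all libraries of a group. The alveolar macrophage markers summed to 804, 655, 550.2, 421 and 467 CPM in MAM replicates 1 to 5 and to 11254 to 13957 CPM in RAMs. In MAMs this order was mostly that of Marco, at 389, 320, 213, 89.7 and 149 CPM, and without Marco the sums were 415, 335, 337, 331 and 318 CPM. Interstitial markers went both ways over MAM replicates 1 to 5, with Stab1 at 227, 280, 458, 502 and 394 CPM and Apoe at 706, 656, 1102, 1234 and 1020 CPM, lower in replicates 1 and 2 as Ms4a7 was, and C1qb at 2676, 2376, 2037, 1953 and 2121 CPM. The neutrophil and granulocyte precursor list summed to 25.8, 25.6, 54.6, 101.7 and 83.9 CPM in MAM replicates 1 to 5. Like Ms4a7, this list was lowest in replicates 1 and 2. In RAMs it summed to 70.8 to 126 CPM. Its most abundant gene, Mmp8, was at 19.9, 18.4, 46.0, 64.7 and 60.8 CPM in MAMs. Without Mmp8 the sums were 5.88, 7.14, 8.56, 37.1 and 23.1 CPM. The part of these lists in the Ms4a7 and Ms4a4a levels was not tested.

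**Figure D2:**
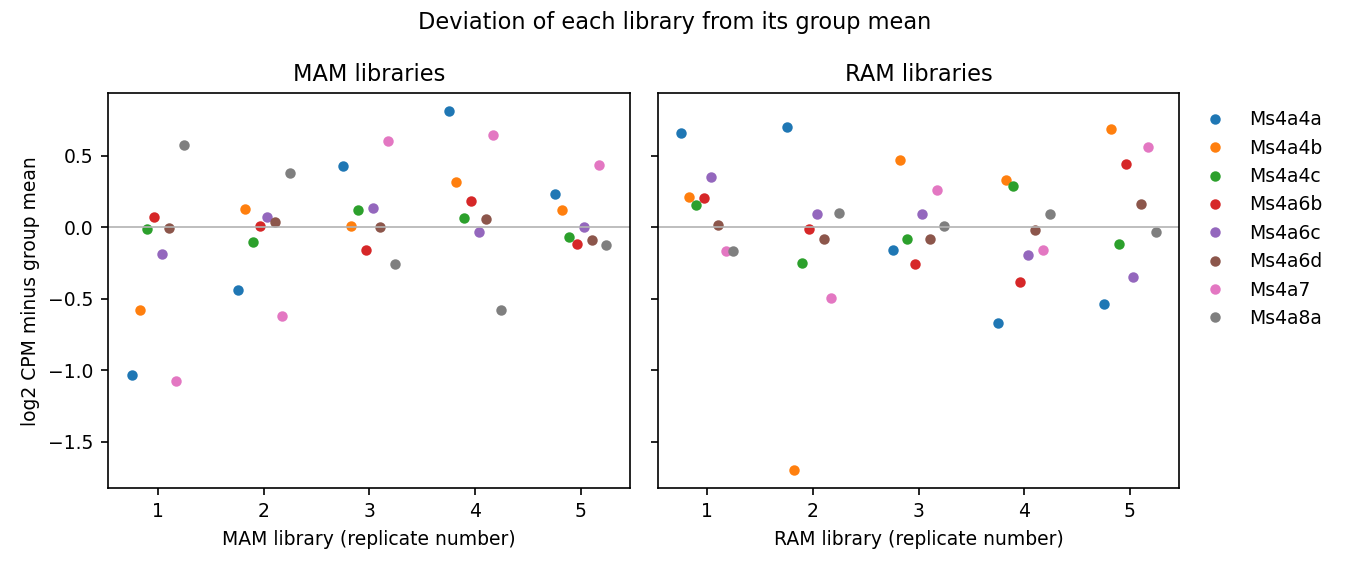
Difference of log2 CPM from the mean of the group (vertical axis) in each MAM and RAM library (horizontal axis, replicate number), 1 point per gene. In MAM replicate 1, Ms4a7 and Ms4a4a sit lowest and Ms4a8a highest, while Ms4a6d, Ms4a6b and Ms4a4c stay near 0.

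Levels of different genes were compared per length, as FPKM deposited by the authors. In MAMs, Ms4a6d was first at 397 ± 15.9 FPKM (SD, n = 5), and its libraries did not overlap those of any other Ms4a gene. Ms4a7 (184 ± 85.1), Ms4a6b (130.1 ± 14.0) and Ms4a6c (120.1 ± 11.4) followed among the members, each overlapping the next over libraries, so that their order is within their spread. Ms4a4c (99.7 ± 6.40 FPKM) overlapped Ms4a6c, and Ms4a4a (21.9 ± 9.04) and Ms4a4b (2.90 ± 0.799) were lower with no overlap. In RAMs, Ms4a6d again led the members, at 55.0 ± 4.03 FPKM (SD, n = 5), and next were Ms4a6c at 5.48 ± 1.34 and Ms4a7 at 5.15 ± 1.52, which overlapped. Ms4a6d made up 41.9% of the summed FPKM of the 7 members in MAMs and 80.2% in RAMs. The summed level was 956 ± 104 FPKM in MAMs and 68.6 ± 5.19 in RAMs. With CPM per kilobase of annotated exon in place of FPKM, Ms4a6d stayed first among the members in both groups, but Ms4a4c moved to rank 2 in MAMs and Ms4a7 to rank 5, Ms4a8a counted.

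**Figure D3:**
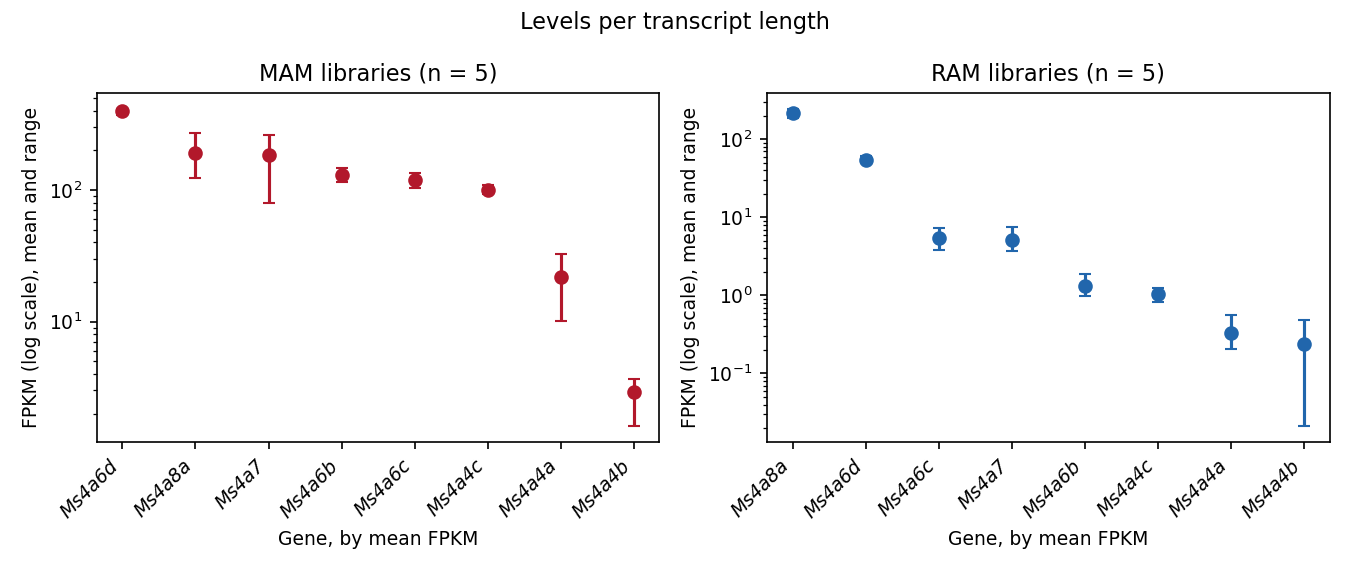
Mean FPKM with the range over 5 libraries (vertical axis, log scale) of 8 Ms4a genes (horizontal axis) in MAMs and in RAMs, in order of the mean. Ms4a6d leads in MAMs at 397 FPKM and Ms4a8a in RAMs at 220.4 FPKM.

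Not all Ms4a genes followed the members. Of 12 other Ms4a genes in the count tables, 10 had any count and 1 was tested. Ms4a8a, which lies in the same cluster, was at 272, 236, 153, 122 and 167 CPM in MAMs and at 189, 228, 213, 227 and 207 CPM in RAMs. The groups overlapped, and the log2 fold change of -0.16 (adjusted p = 0.442, edgeR) did not pass the threshold. Among MAM libraries Ms4a8a was highest in replicate 1, where Ms4a7 was lowest. In FPKM it was the most abundant Ms4a gene in RAMs, at 220.4 ± 21.6 (SD, n = 5), with no overlap with Ms4a6d. Ms4a1, the gene of CD20, held 47 to 209 counts in MAM libraries and 0 to 145 in RAM libraries, and 6 of 10 B cell markers were tested, with 1 up and 1 down. The summed B cell list ran from 46.3 to 88.1 CPM across MAM libraries and from 161 to 196 across RAM libraries. Its most abundant gene over both groups, Cd22, was at 21.0 CPM in MAMs and 159 in RAMs and set that order, since without Cd22 the list ran from 28.3 to 50.7 CPM across MAM libraries and from 9.28 to 23.4 across RAM libraries. Ms4a4d held 48 to 209 counts in MAM libraries and 0 to 7 in RAM libraries, with a mean FPKM of 0.794 in MAMs, under the limit for the test. MAM replicate 1 carried much of that mean, at 2.71 FPKM, with 0.18 to 0.54 FPKM in MAM replicates 2 to 5. Ms4a2 of mast cells was at 0 in all RAM libraries and at 0 to 33 counts in MAM libraries, and Ms4a3 of granulocyte precursors was at 0 in all MAM libraries and at 0 to 14 counts in RAM libraries. A count of 0 allows up to 3 counts, for counting error only.

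The cluster holds 21 annotated Ms4a genes on chr19:10962293-11640851 of GRCm38, and the members lie within 303.6 kb of it. The 46 neighbouring genes of the count tables lie between the outermost Ms4a genes or within 500 kb on either side, and 42 of them had any count. Of 19 tested, 2 were differentially expressed upward in MAMs and 4 downward, with a median log2 fold change of -0.097. Those upward were Gm8369, which lies between Ms4a6c and Ms4a6b, at 4.77 (adjusted p = 0.000126, edgeR), and AW112010 at 1.55 (adjusted p = 0.000393, edgeR). Gm8369 was at 2.79, 9.32, 6.31, 5.01 and 8.70 CPM in MAMs and at 0.531, 0.0300, 0.518, 0.0417 and 0.0426 CPM in RAMs. The 4 downward were neighbours of each other, Cyb561a3 (-4.58), Tmem216 (-4.47), Tkfc (-3.48) and Tmem138 (-3.29). Cyb561a3, which encodes a lysosomal iron reductase, ran from 35.1 to 55.4 CPM across MAM libraries and from 1023 to 1094 across RAM libraries. Cyb561a3 overlaps Tkfc and Tmem138, so reads of these 3 could be split. Tmem216 overlaps Cpsf7, and Tkfc also overlaps Ddb1, so their reads could be split as well. Tkfc was at -0.88 on log2(FPKM + 1) with limma, within the fold limit, Tmem216 at -5.07 without MAM replicate 2, and Gm8369 at 1.33 on log2(FPKM + 1). The other 13 lay between -0.75 in Tmem109 and 0.65 in Vps37c, within the fold limit. They were Tmem109, Vps37c, Sdhaf2, Cpsf7, Ddb1, Slc15a3, Tmem132a, Prpf19, Ccdc86, Mrpl16, Stx3, Patl1 and Osbp.

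**Figure D4:**
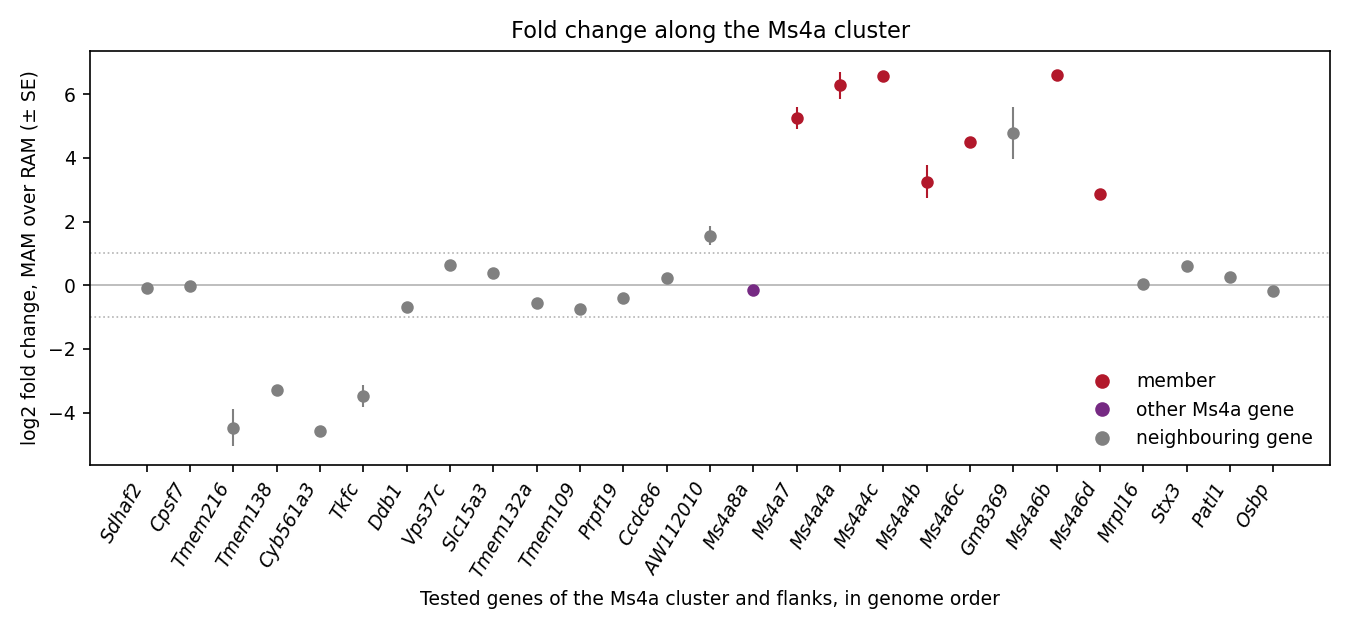
Log2 fold change of MAMs over RAMs with its standard error (vertical axis) for the tested genes of the Ms4a cluster and its flanks, in genome order (horizontal axis); dotted lines mark the fold limit. The 7 members lie between 2.86 and 6.61, Ms4a8a at -0.16 and 4 neighbours under -3.

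Relatives and partners of the family were read from a list of 14 genes, 13 of them tested. Of these, 5 were differentially expressed upward in MAMs and 1 downward, with a median log2 fold change of 0.23. Tmem176a (5.64) and Tmem176b (6.16), which are related to the MS4A proteins, rose with the members, and so did Vsig4 (6.23), the partner of MS4A6D. Vsig4 was at 41.5, 13.7, 7.07, 9.07 and 1.98 CPM in MAMs and at 0.154 to 0.277 CPM in RAMs. Without MAM replicate 1 the log2 fold change of Vsig4 was 5.35 and that of Tmem176a 4.75, and without RAM replicate 1 that of Tmem176a was 6.74. Vsig4, Tmem176a and Tmem176b were all highest in MAM replicate 1, where Ms4a7 and Ms4a4a were lowest. Clec7a, which encodes dectin-1, was at 545, 404, 289, 194 and 329 CPM in MAMs and at 666, 561, 576, 733 and 694 CPM in RAMs. Its log2 fold change of -0.88 (adjusted p = 0.00163, edgeR) was short of the fold limit, and without MAM replicate 1 it was -1.09, past it. Trem2 rose by 2.71 and Cd14, the LPS co-receptor, by 2.58. Fcer1g, the chain that signals for Fc receptors, was at 0.98, Tyrobp at 0.23, Tlr4 at 0.22, Syk at -0.21 and Tlr2 at -0.82, all short of the fold limit. Card9, which acts downstream of dectin-1, fell by 1.12 on the log2 scale. Tnfrsf18, whose product GITR pairs with MS4A4B, was at -1.56 with an adjusted p = 0.0841 (edgeR), and at -2.17 without MAM replicate 1, where it passed the threshold.

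The genes most like the members over all 10 libraries, by Pearson r of log2 CPM with the mean standardised level of the 7 members, were Fcgr1 (0.999), Folr2 (0.999), Maf (0.999), Apobec1 (0.998) and Ifnar1 (0.998). As the groups are apart, such values are common: 1209 of 11563 genes had an r over 0.95. On deviations from group means, over the same 10 libraries, they were Vipas39 (0.966), Mrps31 (0.934), Mrps18b (0.910), Rnf14 (0.910) and Fcgr1 (0.903), and 6 genes had an r over 0.9. On log2(FPKM + 1), 2 of the first 5 genes and none of the second 5 stayed in the lists, so both depend on the scale.

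The RAM level of Ms4a4c was 1.05% of its MAM level and that of Ms4a6b 1.02%. Among 2352 genes over 100 CPM in MAMs, 91 had a RAM level under 1.5% of the MAM level, and the lowest share was 0.660%. In the other direction, 22 of 2067 genes over 100 CPM in RAMs had a MAM level under 1.5%. Ms4a4c and Ms4a6b thus sat where many high genes had their lowest level, and how much of the RAM counts was made in RAMs was not tested. Ms4a7 was at 2.65%, Ms4a6c at 4.44% and Ms4a6d at 13.8%. Ms4a4a and Ms4a4b, which were under 100 CPM in MAMs, were at 1.26% and 10.5%, so Ms4a4a was also in this low range.

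**Figure D5:**
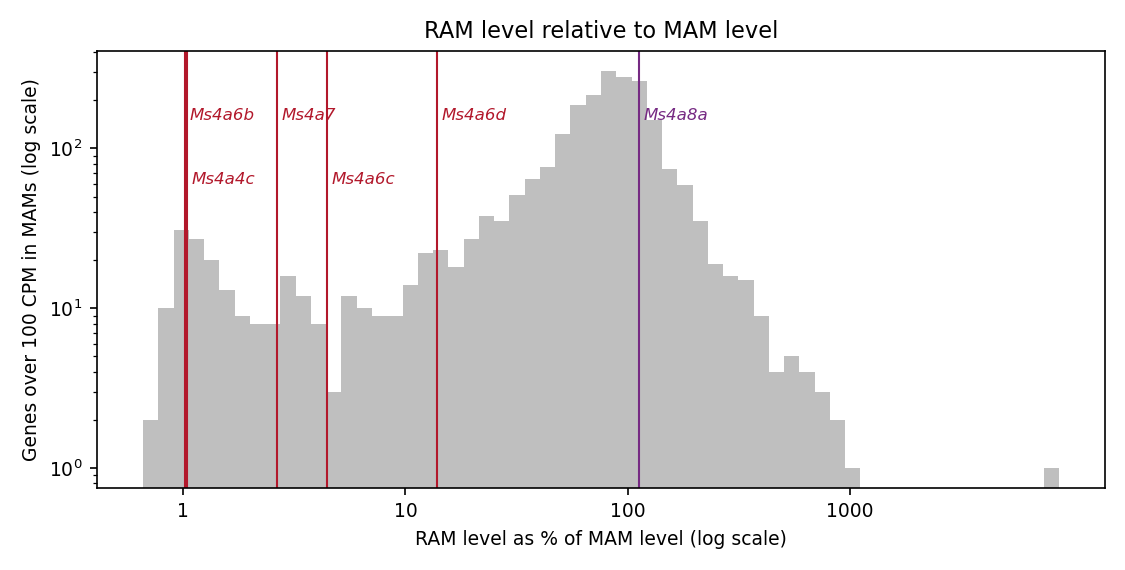
Number of genes over 100 CPM in MAMs (vertical axis, log scale) by RAM level as a percentage of the MAM level (horizontal axis, log scale); vertical lines mark Ms4a genes. Ms4a6b and Ms4a4c sit near 1%, Ms4a6d at 13.8% and Ms4a8a at 112%.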

How the data were processed

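The authors aligned reads with TopHat2 2.0.13, deposited HTSeq 0.6.1 counts per gene and library, and deposited FPKM from Cufflinks 2.2.1. Paired reads were 100 bases long; the kit and counting are not stated to use strand. Libraries were grouped by their labels. A sample was a single mouse or a pool of metastases, which the authors state for samples in general. Tested genes (11571) had any count and reached 1 FPKM on average in MAMs or in RAMs; the fit was edgeR 4.0.16, glmQLFit and glmQLFTest, TMM and Benjamini-Hochberg adjustment, in R 4.3.3; log2 CPM used a prior count of 2. Lines that name no gene (54.6% to 58.3% in MAMs, 62.2% to 64.1% in RAMs) were left out. The alternatives used DESeq2 1.42.0 and limma 3.58.1. The fits were tested on simulated data. Named genes were the members, tested Ms4a genes, neighbours, relatives, list leaders, the genes most like the members and the sorting markers; Klrk1, Marco, Vcan, F13a1, Cd3e, Ms4a18, Stab1, Apoe, Ccr7, Krt8 and Krt18 were chosen after their values were seen. The members and lists were chosen with earlier results of these data known. Positions came from GENCODE, promoters from RefSeq. Figures used matplotlib 3.10.9.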

Additional observations from a re-analysis of the deposited data

Results flagged for a closer look

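Of 146 groups of 5 libraries checked, over 73 named genes, 7 held a library whose gap to the nearest other exceeded 0.71 of the group's range, which chance does in about 1 in 20 groups. None was a member. In RAMs, replicate 1 was highest for Tmem176a (2.997 CPM, the others 0.186 to 0.689), Tlr2 (566, the others 364 to 412), Syk (507, the others 482 to 486) and Ptprc (1132, the others 1038 to 1062), and replicate 2 for Sdhaf2 (57.3, the others 35.9 to 40.2). In MAMs, Itgax was highest in replicate 1 (240.02 CPM, the others 145 to 163) and Ly6c1 in replicate 3 (5.19, the others 0.183 to 1.34).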

How the results depend on the processing

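Under all 19 alternatives the 7 members stayed differentially expressed upward, and with a library left out their log2 fold changes ran from 2.83 in Ms4a6d to 6.73 in Ms4a6b. Upper-quartile normalization moved the median of all genes from -0.015 to -0.18, under which the lowest member was Ms4a6d at 2.69. Libraries with the same replicate number shared little deviation, with correlations between -0.037 and 0.029. The labels do not state whether they were handled together. With the replicate block 7 members were called, 3526 genes against 3511, and neutrophil genes upward were 1 and dendritic genes upward 0. Where no reason is given below, the cause was not tested. On log2(FPKM + 1), fold changes of genes low in a group shrank, since 1 was added to values under 1.

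Of other Ms4a genes, 1 was called upward, Ms4a4d, with edgeR filterByExpr and with no filter, since more genes were tested. With no filter 7 neighbours were called downward. Of relatives and partners, 2 were called downward with DESeq2, upper-quartile normalization, both limma fits and the subtracted 1%, and 1 to 3 with a library left out. Macrophage genes downward were 2 with upper-quartile normalization. With no filter, mast cell genes upward were 2, dendritic genes 2 in each direction and epithelial genes upward 1, also 1 with filterByExpr and 0 to 1 with a library left out. Neutrophil genes upward were 1 with upper-quartile normalization, both limma fits and the subtracted 1%, and 1 to 2 with a library left out. Dendritic genes upward were 0 with both limma fits and the subtracted 1%, and 0 to 1 with a library left out.

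The near-zero log2 fold changes turned sign in Cpsf7 (0.000227 with DESeq2, 0.000208 with RLE, 0.011 with filterByExpr and with no filter, -0.088 to 0.072 with a library left out), Mrpl16 (-0.13 with upper-quartile, -0.046 to 0.19 with a library left out) and Sdhaf2 (-0.23 to 0.035 with a library left out). Lyz2 was at 2.44 on log2(FPKM + 1) and 3.11 on log2(FPKM + 0.1), since it is listed at 0 FPKM in RAM replicate 1. Tnfrsf18 was at -1.27 to -2.17 with a library left out, and passed the threshold with DESeq2 (-1.55), both limma fits on FPKM (-1.91 and -2.73), the subtracted 1% (-1.71), without MAM replicate 1 and without RAM replicate 5. Fcer1g passed it with the subtracted 1% and without RAM replicate 4, at 1.00 and 1.01, Clec7a (-1.04) and Mrc1 (-1.06) with upper-quartile normalization, and Vipas39 without MAM replicate 1 (1.00).

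With CPM per kilobase the ranks in MAMs were 2 for Ms4a4c, 3 for Ms4a8a, 4 for Ms4a6c, 5 for Ms4a7 and 6 for Ms4a6b, and in RAMs 5 for Ms4a4c and 6 for Ms4a6b. On log2(FPKM + 1), 2 of the 5 genes most like the members over 10 libraries and 0 of those by deviations stayed in the lists. On the given strand alone, 3 member windows held GAAANNGAA in place of 4, and 4.48% of all windows in place of 8.56%. With the most abundant gene left out of a list's sum, an alternative chosen after seeing the data, the log2 ratio of summed CPM in MAMs over RAMs turned from -0.17 to 0.61 for macrophage genes, from -2.15 to 1.13 for T and NK cell genes, from -1.53 to 1.31 for B cell genes and from -1.45 to 0.53 for dendritic genes, since that gene was higher in RAMs.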

Other observations

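Other sorting markers and cell type lists were measured beside the members. Adgre1, which encodes F4/80, was at a log2 fold change of 0.37, Mrc1 at -0.89 and Ptprc at -0.14, all within the fold limit. Ly6c2 ran from 2.81 to 15.4 CPM across MAM libraries and from 0.0426 to 0.300 across RAM libraries, although both sorts took LY6C- cells; Ly6c1 was at 3.78 (2.71 without MAM replicate 3; not past the threshold at 0.51 and 0.91 in the limma fits with 1 or 0.1 added to FPKM, nor at 3.23 with the replicate block) and its reads could be split with Ly6c2. Of 10 macrophage genes tested, 4 were differentially expressed upward and 1 downward, the most abundant was Lyz2, and Fcgr1 changed most (3.35).

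Over both groups together, Chil3 was the most abundant alveolar marker, although Marco and Itgax were above it in MAMs, and Fabp1 changed most (-6.80). C1qb led the interstitial markers over both groups, although Apoe was above it in RAMs, and C1qa changed most (6.81). With 1% of the other group's level subtracted, Chil3 (-10.09) lay beyond Fabp1 (-8.78) and C1qb (11.67) beyond C1qa (10.35). Plac8 changed most of the monocyte markers (6.78), Prf1 of the T and NK list (-5.28) and Bank1 of the B cell list (4.29). Of 10 mast cell and basophil genes, 1 was tested, Hdc, at 19.1 CPM in MAMs and 0.467 in RAMs, while Fcer1a was at 0 in all libraries of both groups. Of 12 neutrophil genes 4 were tested, with 2 upward and 1 downward; Mmp8 was most abundant and S100a9 changed most (3.47; 2.74 without MAM replicate 4 and 4.47 without RAM replicate 4). Of 8 dendritic genes 2 were tested, with 1 each way, with Clec9a at 1.01 CPM in MAMs and 19.4 in RAMs, and Ccr7 at 1.94 and 0.321. Ccr7 was at 0.874, 5.81, 0.134, 2.46 and 0.402 CPM in MAM replicates 1 to 5 and overlapped RAMs, at 0.0835 to 0.639. The upward dendritic call was lost without MAM replicate 2, and also without RAM replicate 1, 3 or 4. Of 9 epithelial and tumour cell genes 7 were tested and 6 were downward in MAMs, with Krt19 at 6.09 CPM in MAMs and 436 in RAMs and Epcam at -6.88 on the log2 scale. The seventh, Krt18, was at 3.93 with an adjusted p = 0.0715 (edgeR). This value came from MAM replicate 1, at 8.84 CPM, with 0, 0.201, 0 and 0.0144 CPM in MAM replicates 2 to 5. RAM libraries ran from 0 to 0.438 CPM for Krt18, so it gives no direction. Krt8, not tested, ran from 0.615 to 3.31 CPM across MAM libraries and from 0 to 0.205 across RAM libraries.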
